A study of Sus scrofa with 4 samples.

Results

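Iron reaches the early pig conceptus through the fluid of the uterus, and 9 genes of that route were followed here through the cells of the embryo and of the endometrium, the lining of the uterus. They are ACP5, UABP-2, TF, TFRC, HAMP, LTF, SLC40A1, SLC11A2 and FTH1, chosen by their symbols. Of the 21280 genes in the count tables, 8 of the 9 have 1 row each, and FTH1, the ferritin heavy chain, has none and was not analysed here. The study sequenced RNA of single cells from pigs in 4 groups, with 1 library in each: the embryo at day 12 and at day 9 of pregnancy, and the endometrium at day 12 and at day 9. Breed, number of animals and pooling are not given in the sources used here. Embryos were taken apart with papain and dispase and endometrium with collagenases and dispase, and both passed through a red cell lysis step, per the labels' protocols.

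Uteroferrin, the product of ACP5, is a purple iron-containing acid phosphatase that the glands of the pig uterus secrete under progesterone, and it is known as a carrier of iron to the conceptus. UABP-2 encodes a uteroferrin-associated basic protein of the serpin family, which binds uteroferrin in the uterine fluid. Transferrin (TF) carries iron in plasma and the transferrin receptor (TFRC) takes the loaded carrier into the cell, where SLC11A2 (DMT1) moves the iron out of the endosome. SLC40A1 (ferroportin) exports iron, the hormone hepcidin (HAMP) binds ferroportin and removes it from the membrane, and lactoferrin (LTF) binds iron in secretions. On the Sscrofa11.1 build, RefSeq places ACP5 on chromosome 2 (70206159 to 70209855), UABP-2 on chromosome 7 (115685830 to 115696632), HAMP on chromosome 6 (44785863 to 44787303) and SLC40A1 on chromosome 15 (94140635 to 94161793).

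After filtering, the day 12 embryo held 6671 cells and the day 9 embryo 7000, and the day 12 endometrium held 8962 cells and the day 9 endometrium 7984. Depth ran from a median of 2233 UMIs per cell (a UMI marks 1 captured molecule) in the day 12 endometrium to 11883.5 in the day 9 embryo, so classes were compared on their summed counts. Levels are CPM, a gene's UMIs summed over the cells of a class and scaled to 1e6 UMIs of that class in its library. Brackets give 95% intervals, exact Poisson for levels and exact binomial for ratios and shares, which cover counting error only. With 1 library per group no difference had a replicate check and no test was possible, so a gene counts as higher or lower when log2 ratios of CPM + 1 reach 2-fold, among genes at 5 CPM or more on a day. Classes were named from marker genes, none of them a member: day 12 and day 9 trophectoderm-like clusters had 8 to 13 of 16 and 14 of 14 detected markers high, and blood endothelial-like clusters 13 of 13 on both days. Unnamed clusters held 7.97% and 6.69% of the cells of the day 12 and day 9 embryo, and 4.05% and 0.200% of those of the day 12 and day 9 endometrium. Between any pair of libraries, 54 to 105 cell barcodes were shared, at most 1.32% of a library.

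The members were high in separate compartments. Among classes of 50 cells or more, ACP5, UABP-2 and TFRC had their highest level in day 12 uterine epithelium, TF and HAMP in day 12 hypoblast-like cells, and SLC40A1 in day 9 macrophages and day 12 stroma. LTF stayed at or under 8.48 CPM in all 21 named classes of 50 cells or more, and SLC11A2 was found in all of them, with a median of 21.7 CPM and a highest level of 98.98 CPM. TF was at 0 UMIs in 12 of the 21 classes and UABP-2 in 7. The map of levels shows each of these compartments.

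**Figure D1:**
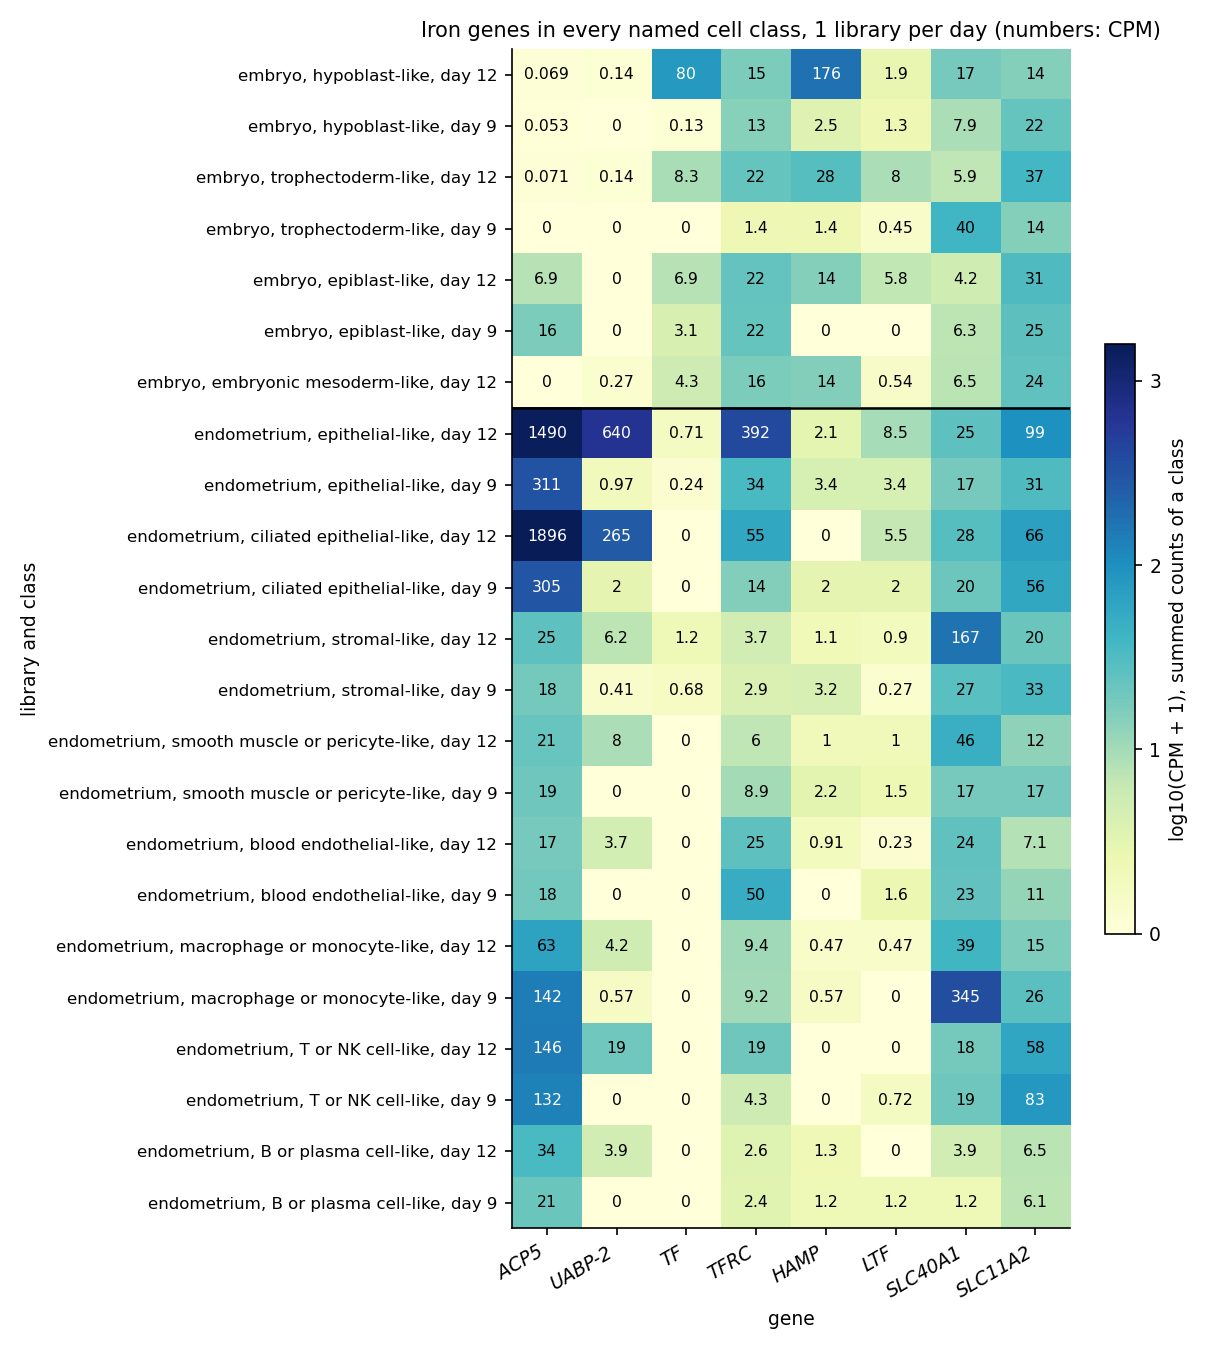
Level of each gene (columns) in each named class of cells (rows, day 12 above day 9), as log10(CPM + 1) of summed counts with the CPM printed in the cell. ACP5 reaches 1490.3 CPM in day 12 epithelium, against 311 CPM on day 9, while embryonic classes are at 15.6 CPM or less; the ciliated class (43 cells on day 12) and the day 9 epiblast-like class (21 cells) are small.

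In epithelial-like cells of the uterus, the secreted and the uptake members were higher on day 12. ACP5 was at 1490.3 CPM on day 12 (1427 to 1555, 2108 UMIs in 353 cells), against 311 CPM on day 9 (294 to 328, 1287 UMIs in 670 cells), 4.80-fold higher (4.47 to 5.15). UABP-2 was at 639.8 CPM on day 12 with 905 UMIs, against 0.966 CPM on day 9 with 4 UMIs, a ratio of 663 (258 to 2437). Of the 6 members that could be compared in this class, 5 were 2-fold or more higher and 0 lower, where 11.1% of all 10476 genes were higher and 15.2% lower. The fifth, LTF, rests on 12 UMIs on day 12 and 14 UMIs on day 9, and its log2 ratio of 1.11 came to 0.69 with 5 CPM added before the ratio. SLC40A1 was at 24.7 CPM on day 12, against 17.1 CPM on day 9, within 2-fold over the whole class.

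The day 12 ACP5 signal was concentrated in few cells. Apart from ciliated cells, the epithelium of each day split into a cluster with more UMIs of FOXA2, a transcription factor of uterine glands, and a cluster with fewer. These were described after their values had been seen. In the FOXA2-higher cluster ACP5 was at 8821 CPM on day 12 (8380 to 9279, 57 cells), against 197 CPM on day 9 (180 to 216, 298 cells). In the FOXA2-lower cluster it was at 490.1 CPM on day 12 (452 to 531, 296 cells) and at 458 CPM on day 9 (427 to 489.8, 372 cells), a ratio of 1.07 (0.963 to 1.19). So the 57 cells of 1 cluster, 0.636% of the day 12 endometrial cells, held 1498 of the library's 3263 ACP5 UMIs, and in the FOXA2-lower cluster the days differed by less than the counting error. Clustering without the members gave the same 57 and 298 cells.

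Within those 57 cells ACP5 was still uneven: 52 of them had a UMI, the per-cell median was 3569 CPM with quartiles of 806 and 11229 CPM, and the highest cell reached 166 UMIs. The 10 cells with most UMIs gave 65.2% of the cluster's ACP5. FOXA2 itself was low, at 29.4 CPM (5 UMIs) in the day 12 cluster and 79.1 CPM (185 UMIs) in its day 9 counterpart. The lower cluster had 0 FOXA2 UMIs on day 12 and 3 on day 9. SOX17, which also marks these glands, was at 259 CPM and 256 CPM in the 2 day 12 clusters. The day 12 FOXA2-higher cells were also shallower, with a median of 1842 UMIs, against 4477 on day 9, and had 5 of 12 detected epithelial markers high, against 6 of 12 on day 9. The part of these differences in the ACP5 values was not tested.

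UABP-2 was higher on day 12 in both clusters. It was at 2932 CPM in the FOXA2-higher cluster on day 12 (2680 to 3202), against 1.71 CPM on day 9 (4 UMIs), and at 327 CPM in the FOXA2-lower cluster on day 12 (296 to 360.4), against 0 UMIs in 372 cells on day 9, at least 197-fold higher with 3 UMIs in place of 0. On day 12 it was found in 30 of the 57 and in 181 of the 296 cells, and ACP5 was found beside it in 30 and 133 of them. Day 9 epithelium carried ACP5 in 377 of 670 cells but UABP-2 in 3. SLC40A1, within 2-fold over the whole class, differed in direction between the clusters. In the FOXA2-higher cluster it was at 58.9 CPM on day 12 (10 UMIs), against 8.98 CPM on day 9 (21 UMIs). That is 6.56-fold higher (2.76 to 14.6). In the FOXA2-lower cluster SLC40A1 was at 20.1 CPM on day 12, against 27.7 CPM on day 9.

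**Figure D2:**
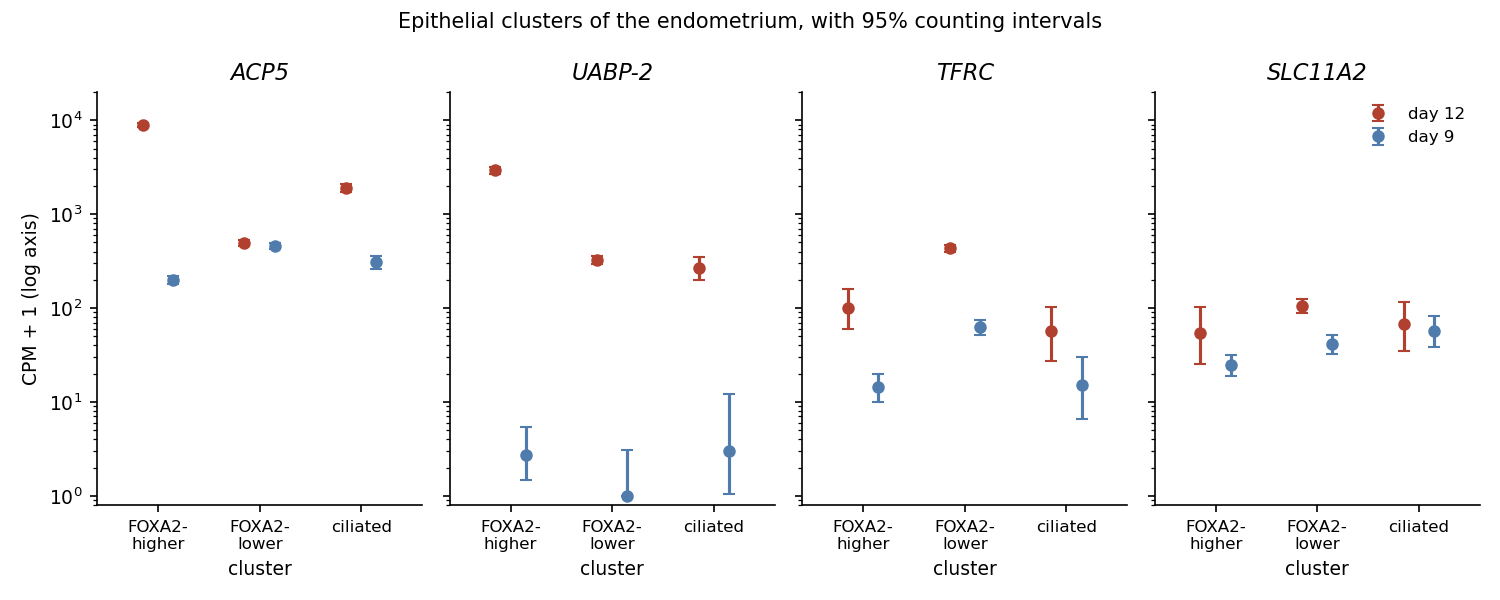
CPM + 1 on a log axis of ACP5, UABP-2, TFRC and SLC11A2 in the 3 kinds of epithelial cluster, day 12 left of day 9; points are levels of summed counts and bars 95% counting intervals. ACP5 differs between days in the FOXA2-higher cluster (8821 and 197 CPM) and hardly in the FOXA2-lower one (490.1 and 458 CPM), whereas UABP-2 is higher on day 12 in each.

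Ciliated epithelial-like cells numbered 43 on day 12, under the 50 needed for a comparison, and 91 on day 9. Their ACP5 was at 1896 CPM on day 12, against 305 CPM on day 9, but 10 cells gave 98.5% of the day 12 UMIs and 15 of the 43 cells had any. UABP-2 was found in 5 of the 43 cells, at 265 CPM. FOXA2 in ciliated cells was at 49.8 CPM on day 12 (9 UMIs) and 72.3 CPM on day 9 (36 UMIs). The intervals overlapped those of the FOXA2-higher clusters, so FOXA2 did not set these clusters apart from ciliated cells.

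Uterine secretions outside the iron route were higher on day 12 as well. Of 6 comparable genes of that list in epithelium, 4 were higher and 0 lower, where 11.1% of all genes were higher and 15.2% lower. The median log2 ratio of the 6 was 3.72, against -0.16 over all genes. The retinol carrier RBP4 was at 10311 CPM on day 12, against 213 CPM on day 9. Osteopontin (SPP1) was at 141 CPM against 6.76 CPM, cystatin E/M (CST6) at 795 CPM against 82.8 CPM, and stanniocalcin-1 (STC1) at 709.8 CPM against 20.8 CPM. RBP4 was as abundant in the FOXA2-lower cluster (10236 CPM on day 12) as in the FOXA2-higher one (10864 CPM), unlike ACP5. SPP1, CST6 and STC1 were higher in the FOXA2-lower cluster on day 12, at 158, 861 and 806 CPM. The FOXA2-higher cluster had them at 17.7 CPM (3 UMIs), 312 CPM and 5.89 CPM (1 UMI). Of 4 comparable gland and lumen genes 2 were lower on day 12, FOXA2 (3.53 CPM against 45.4 CPM) and MSX1 (44.5 CPM against 160.3 CPM), where 15.2% of all genes were lower. The FOXA2-higher cluster made up 57 of 353 epithelial cells on day 12 and 298 of 670 on day 9. Within it FOXA2 was at 29.4 CPM on day 12 (5 UMIs), against 79.1 CPM on day 9. Of 2 comparable other acid phosphatases, 0 passed 2-fold.

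Outside the epithelium, ACP5 was next highest in immune cells, where the enzyme is known from macrophages and osteoclasts as tartrate-resistant acid phosphatase. T or NK cell-like cells had 146 CPM on day 12 (125 to 170) and 132 CPM on day 9 (113 to 152), a difference inside the counting error. These levels depend on which cells enter the class: over the settings tried they lay between 67.4 and 146 CPM on day 12, and between 83.9 and 181 CPM on day 9. Macrophage or monocyte-like cells had 62.9 CPM on day 12 (52.7 to 74.6), against 142 CPM on day 9 (125 to 161), a ratio of day 9 over day 12 of 2.26 (1.82 to 2.81). In order of level, day 12 epithelium stood alone, day 9 epithelial and day 9 ciliated cells overlapped, T or NK cells of both days and day 9 macrophages overlapped as classed here, and B, stromal, smooth muscle and endothelial classes lay together between 17.1 and 33.6 CPM. UABP-2 stood at 3.65 to 18.6 CPM in every other named endometrial class of 50 cells or more on day 12. In T or NK cell-like cells its 21 UMIs came from 9 cells, and in stromal-like cells 83 UMIs came from 82 of 5625 cells. For each 100 ACP5 UMIs there were 42.9 of UABP-2 in day 12 epithelium, 25.3 in stroma, 12.7 in T or NK cells and 6.72 in macrophages. Free RNA in the droplets can give low levels in all types. Whether these low UABP-2 levels come from the cells themselves was not tested.

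In the embryo ACP5 and UABP-2 were close to absent from the named classes. On day 12, 20 ACP5 UMIs and 56 UABP-2 UMIs were counted in 6671 cells, and on day 9, 9 and 0 in 7000 cells. The cells named epiblast-like had 7 of 7 detected epiblast markers high on each day, but on day 12 their 10 leading genes held 0 of these markers and included EOMES, a listed mesoderm marker, so the name is uncertain. They held 13 of the 20 ACP5 UMIs in 12 of 142 cells on day 12 (6.87 CPM, 3.66 to 11.8) and 5 of the 9 in 5 of 21 cells on day 9 (15.6 CPM, 5.08 to 36.5). Day 9 barcodes of 100 UMIs or fewer, too low to be cells, had ACP5 at 6.68 CPM (3.05 to 12.7), an interval that overlaps the last one. Of the 56 UABP-2 UMIs, 47 came from 1 unnamed cluster of 20 cells. That cluster was led by SPINK9, THY1, CDSN and S100A12 and had RBP4 at 7679 CPM. The trophectoderm marker PLET1 was at 952.6 CPM, where the remaining cells had 5142 CPM. HAND1 was at 101 CPM against 875 CPM, IFNG at 57.7 CPM against 323 CPM, and CDX2 and CYP19A1 at 0 UMIs. ELF3 and PTGES, also trophectoderm markers, were higher than in the remaining cells. Day 12 uterine epithelium had UABP-2 at 640 CPM and RBP4 at 10311 CPM. It had THY1 at 44.5 CPM, where the cluster had 2930 CPM, and PLET1 at 0. SPINK9 was at 294 CPM in that epithelium, against 2930 CPM in the cluster, and CDSN at 19.1 CPM against 1588 CPM. S100A12 was at 1668 CPM in the epithelium, against 1212 CPM in the cluster. ELF3, also a listed epithelial marker, was at 288 CPM against 332 CPM, and PTGES at 21.2 CPM against 188 CPM. TFRC was at 144 CPM and SLC11A2 at 129.9 CPM in the cluster. None of its 20 barcodes was a kept cell of another library, and 0 of them stood among the deposited barcodes of the endometrium of either day.

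TFRC, the uptake receptor, was also highest in day 12 epithelium. It was at 392 CPM there (360.4 to 426), against 34.3 CPM on day 9 (28.9 to 40.4), 11.4-fold higher (9.50 to 13.9). Every other named class of 50 cells or more, on either day, lay between 1.36 and 50.3 CPM, and neighbours among these overlapped in their intervals. TFRC was higher in the FOXA2-lower cluster on both days, at 432 CPM on day 12 (396.5 to 470.4) and 61.6 CPM on day 9 (50.6 to 74.1). The FOXA2-higher cluster had TFRC at 100.1 CPM on day 12 (17 UMIs) and 13.3 CPM on day 9 (31 UMIs). ACP5 differed from this on day 12 only. On day 9 it too was higher in the FOXA2-lower cluster, at 458 CPM against 197 CPM. At clustering resolution 1.0 the FOXA2-lower cells of day 12 gave off 19 cells with TFRC at 1493 CPM, SLC11A2 at 564 CPM, UABP-2 at 1427 CPM and ACP5 at 580.5 CPM.

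SLC11A2 was higher in the same epithelium, at 98.98 CPM on day 12 (83.3 to 117) and 30.9 CPM on day 9 (25.8 to 36.7), a log2 ratio of 1.65. Of the 190 day 12 epithelial cells with a TFRC UMI, 37.9% also had one of SLC11A2, against 12.9% of the cells without TFRC. The cells with TFRC were also deeper, with a median of 4478 UMIs, against 2436 in those without. STEAP1 and STEAP3, of a family of metal reductases in which STEAP3 serves the transferrin endosome, were higher too. STEAP1 was at 112 CPM on day 12, against 5.55 CPM on day 9, and STEAP3 at 65.7 CPM on day 12, against 5.31 CPM on day 9. They were the 2 of 5 comparable uptake genes that were higher, with 0 lower, where 11.1% of all genes were higher and 15.2% lower. In the FOXA2-lower cluster STEAP1 was at 128 CPM on day 12, against 12.2 CPM on day 9. STEAP3 was at 74.7 CPM there on day 12, against 7.21 CPM on day 9. In the FOXA2-higher cluster STEAP1 and STEAP3 had 0 UMIs on day 12, against 1 and 9 UMIs on day 9. Dissociation genes, induced by handling of tissue, were 15361 CPM in sum in day 12 epithelium and 10762 CPM in day 9 epithelium, and 1 of 10 passed 2-fold.

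The receptor differed less in other endometrial classes. Blood endothelial-like cells had TFRC at 24.7 CPM on day 12 (20.2 to 29.8), against 50.3 CPM on day 9 (38.8 to 64.3), a log2 ratio of -1 that lies on the threshold; it was the 1 of 4 members called, where 7.92% of all genes were lower and 4.36% higher. Over its alternatives that ratio lay between -1.01 and -0.90. T or NK cell-like cells had 19.5 CPM on day 12 (22 UMIs) and 4.32 CPM on day 9 (6 UMIs). There 2 of 5 members, TFRC and the low UABP-2, were called higher and 0 lower, where 5.92% of all genes were higher and 22% lower. SLC11A2 was at 58.4 CPM on day 12, against 82.7 CPM on day 9 in those cells, within 2-fold; at resolution 1.0 the day 9 level was 106 CPM, so it cannot be ranked against the 98.98 CPM of day 12 epithelium.

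In trophectoderm-like cells, the outer layer of the conceptus that faces the uterus, TFRC was at 21.7 CPM on day 12 (615 UMIs), against 1.36 CPM on day 9 (0.498 to 2.95, 6 UMIs). That is 16.0-fold higher (7.31 to 43.7). With day 9 embryo cells called at 1000 UMIs the day 9 level was 3.30 CPM. The log2 ratio, which has 1 CPM added, was then 2.40 in place of 3.27. SLC11A2 was at 36.8 CPM on day 12, against 13.8 CPM on day 9, 2.67-fold (2.06 to 3.52). LTF was at 7.97 CPM on day 12 (226 UMIs) and 0.452 CPM on day 9 (2 UMIs), and 10 cells gave 33.6% of the day 12 UMIs. Of 6 members compared in this class 5 were higher and 1 lower, where 29.3% of all 7770 genes were higher and 10.1% lower. The class held different clusters on the 2 days, 3248 cells on day 12 and 650 on day 9. TFRC was uneven among the day 12 clusters, at 26.2 CPM in 1823 cells with a median of 11131 UMIs, and at 8.80 and 5.99 CPM in the clusters of 1147 and 278 cells with medians of 3920 and 4153 UMIs. Hypoblast-like cells, which line the yolk sac later on, were within 2-fold for both genes. TFRC was at 15.5 CPM on day 12, against 13.4 CPM on day 9, and SLC11A2 was at 13.9 CPM on day 12, against 21.7 CPM on day 9. Day 9 barcodes of 100 UMIs or fewer, too low to be cells, had TFRC at 23.7 CPM and SLC11A2 at 20.8 CPM.

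The carrier TF and the hormone HAMP belonged to the hypoblast of day 12. TF was at 79.7 CPM there (76.5 to 83.0, 2308 UMIs), against 0.134 CPM on day 9 (10 UMIs), and HAMP at 176 CPM (171 to 181), against 2.53 CPM (2.18 to 2.91). Hypoblast-like cells were 38.2% of the day 12 cells and held 87.3% of the library's TF and 82.7% of its HAMP. With each cell thinned to 1000 UMIs, 8.12% of day 12 hypoblast-like cells had a TF UMI and 16.2% one of HAMP, against 0 and 0.205% of day 9 cells; unthinned shares were 45.8% and 60.3% on day 12 and 0.171% and 2.95% on day 9. Of 5 members compared 3 were higher and 0 lower, where 12% of all genes were higher and 8.79% lower. The third was SLC40A1, at 16.9 CPM on day 12, against 7.92 CPM on day 9, whose log2 ratio of 1.01 came to 0.76 with 5 CPM added.

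The 3 day 12 hypoblast clusters ranked differently for the 2 genes. TF was at 37.2 CPM in 1462 cells, at 126 CPM in 994 cells and at 357 CPM in 94 cells that also had the liver-type secretory genes FGB (932 CPM), TTR (1018 CPM) and APOB (227 CPM). HAMP was at 155 CPM and 217 CPM in the first 2 clusters but at 32.6 CPM in the 94 cells (20.7 to 48.95). The cells highest for TF were thus the lowest for HAMP among the hypoblast-like clusters. Among single cells the 2 genes hardly went together: 62.6% of cells with a TF UMI had one of HAMP, against 58.4% of the others, at medians of 11516 and 10733 UMIs.

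**Figure D3:**
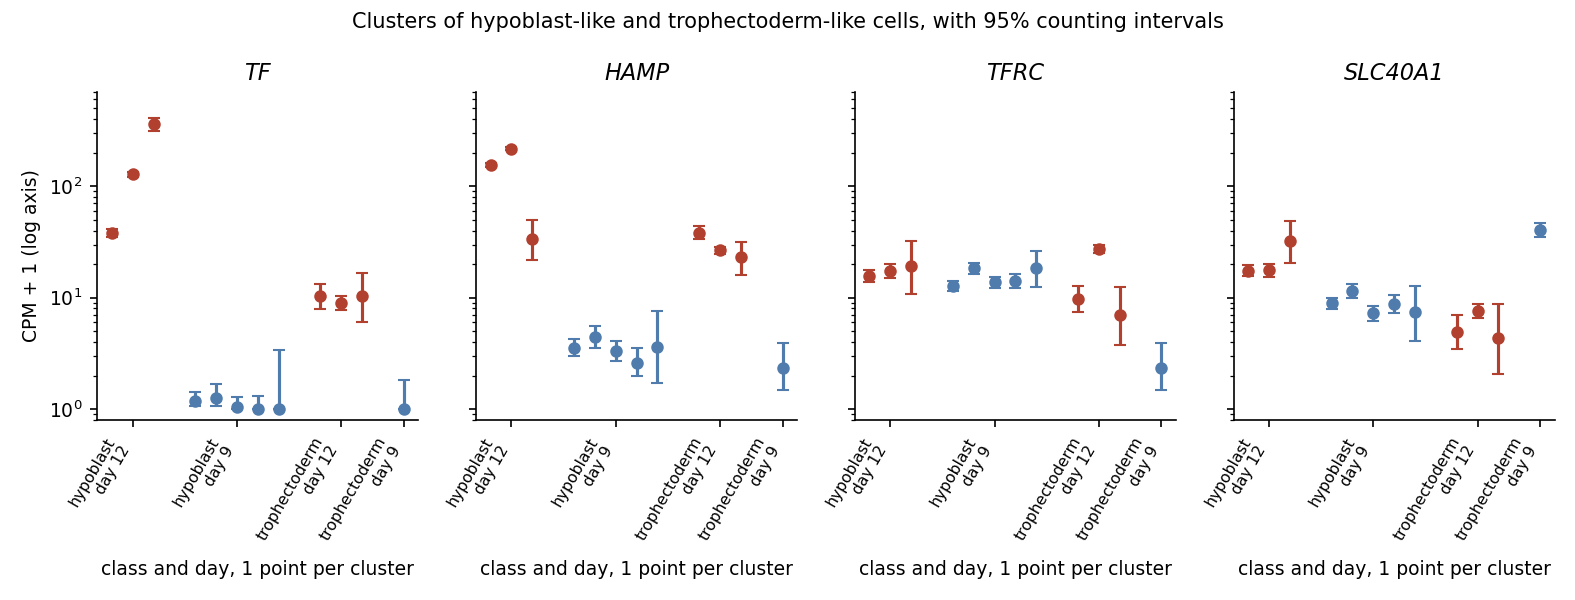
CPM + 1 on a log axis of TF, HAMP, TFRC and SLC40A1 in each cluster of hypoblast-like and trophectoderm-like cells, day 12 left of day 9; each point is a cluster and bars are 95% counting intervals. The cluster with most TF (357 CPM) has the least HAMP of the 3 day 12 hypoblast clusters (32.6 CPM), and SLC40A1 is highest in day 9 trophectoderm (39.8 CPM).

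TF and HAMP were also called higher in trophectoderm-like cells, at 8.32 CPM on day 12 against 0 UMIs on day 9, and at 27.6 CPM on day 12 against 1.36 CPM on day 9. These day 12 levels were 10.4% and 15.7% of those in hypoblast-like cells of the same library. Other secreted products of the hypoblast stood there at 12.2% (APOA1), 14.0% (FETUB), 11.1% (RBP4) and 9.62% (TTR) of their hypoblast level, while APOE stood at 28.1%. Embryonic mesoderm-like cells had TF at 5.41% and HAMP at 7.98%, against APOA1 at 8.30% and APOE at 98.6%. Epiblast-like cells had TF at 8.62% and HAMP at 7.82%, against APOA1 at 15.5% and RBP4 at 20.9%. Whether the TF and HAMP UMIs outside the hypoblast come from those cells or from free RNA was not tested. Day 9 barcodes too low to be cells (100 UMIs or fewer) had TF at 0.742 CPM and HAMP at 6.68 CPM.

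A list of genes tied to the control of hepcidin held BMP ligands, but also a target of BMP signalling and a brake on it. Of the comparable genes of that list, 2 of 5 were higher in day 12 hypoblast-like cells and 1 lower. In trophectoderm-like cells 3 of 3 were higher. Of all genes, 12% were higher and 8.79% lower in hypoblast-like cells, and 29.3% higher in trophectoderm-like cells. ID1, a target of BMP signalling, was at 589 CPM on day 12, against 230.04 CPM on day 9 in hypoblast-like cells. SMAD7, a brake on that pathway, was at 22.5 CPM on day 12, against 3.26 CPM on day 9. ID1 and SMAD7 were the 2 higher genes in hypoblast-like cells, and neither is a BMP itself. ID1 was at 374 CPM on day 12, against 43.9 CPM on day 9 in trophectoderm-like cells. In the epithelium ID1 was lower, at 131.5 CPM on day 12, against 1046 CPM on day 9. SMAD7 was within 2-fold over that class, at 20.5 CPM on day 12, against 11.1 CPM on day 9, but its clusters differed. In the FOXA2-lower cluster SMAD7 was at 22.5 CPM on day 12 (28 UMIs), against 4.44 CPM on day 9 (8 UMIs). In the FOXA2-higher cluster it was at 5.89 CPM on day 12 (1 UMI), against 16.2 CPM on day 9 (38 UMIs). Dissociation genes moved with the embryonic results: 8 of 9 comparable ones were higher on day 12 in hypoblast-like cells (median log2 ratio 1.85) and 8 of 9 in trophectoderm-like cells (3.57). Their summed level was 4476 CPM on day 12, against 2989 CPM on day 9 in hypoblast-like cells, and their part in these results was not tested.

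The exporter SLC40A1 was highest in different endometrial cells on the 2 days. In stromal-like cells, the fibroblasts of the lining, it was at 167 CPM on day 12 (160.2 to 174, 2235 UMIs in 5625 cells), against 27.1 CPM on day 9 (24.5 to 29.9, 401 UMIs in 5063 cells), 6.17-fold higher (5.54 to 6.87). All 5 day 12 stromal clusters lay between 155 and 224 CPM and all 3 day 9 clusters between 24.4 and 29.6 CPM, so the clusters of the days did not overlap. The share of cells with a UMI after thinning was 14.4% on day 12 (13.5 to 15.3) and 2.73% on day 9 (2.29 to 3.21), at median depths of 2173 and 2683 UMIs; it was 1.42% and 1.49% in epithelium, where the gene was low. Of 4 members compared in stroma 2 were higher, SLC40A1 and the low UABP-2, and 0 lower, where 5.87% of all genes were higher and 7.86% lower. Smooth muscle or pericyte-like cells had SLC40A1 at 45.9 CPM on day 12 (33.6 to 61.2) and 17.0 CPM on day 9 (10.8 to 25.5); 2 of 5 members were called higher and 0 lower there, where 7.89% of genes were higher and 8.34% lower.

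In macrophage or monocyte-like cells, which recycle iron from red cells, SLC40A1 was at 38.5 CPM on day 12 (30.6 to 47.8, 599 cells), against 345 CPM on day 9 (318 to 374, 612 cells), a ratio of day 9 over day 12 of 8.96 (7.11 to 11.4). After thinning, 3.84% of cells had a UMI on day 12 and 22.2% on day 9, with median depths of 3082 and 2481.5 UMIs. Both members called in this class, ACP5 and SLC40A1, were lower and 0 of 4 higher, where 10.1% of all genes were lower and 6.38% higher. CD163, the scavenger receptor for haemoglobin, was lower beside it, at 42.7 CPM on day 12 against 295.5 CPM on day 9. Of 13 comparable markers of the class 4 were lower (CD163, CD14, CD68 and MRC1) and 0 higher, with a summed level of 18890.2 CPM on day 12, against 27201 CPM on day 9. A change in kind of macrophage and a change within the same cells cannot be told apart, as each day's class was a single cluster. Of the heme genes, SLC48A1, which moves heme out of the lysosome, was at 8.93 CPM on day 12, against 23.5 CPM on day 9.

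**Figure D4:**
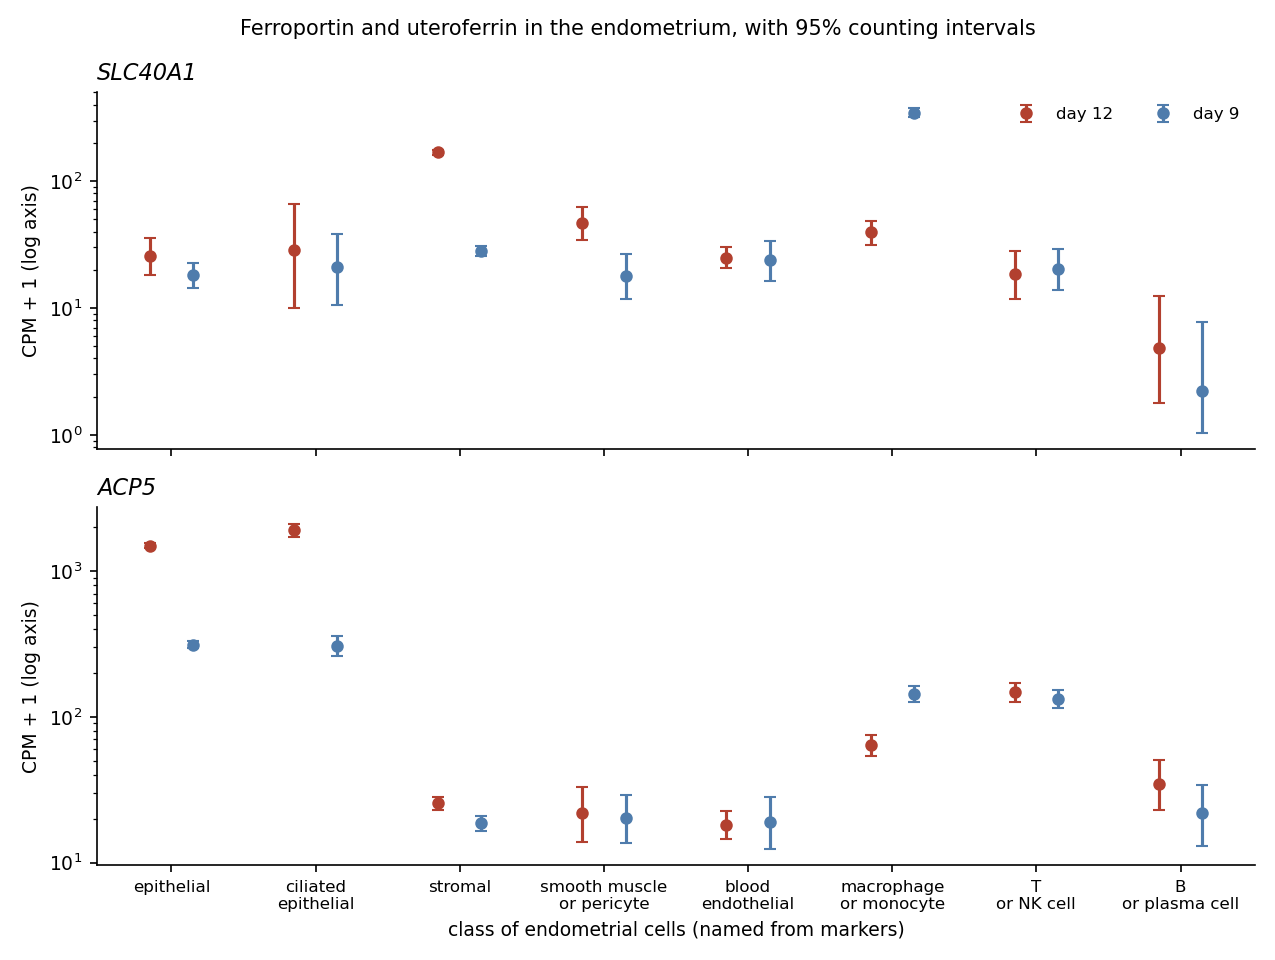
SLC40A1 (top) and ACP5 (bottom) in each class of endometrial cells as CPM + 1 on a log axis, day 12 left of day 9; bars are 95% counting intervals. SLC40A1 is 167 CPM in day 12 stroma against 27.1 CPM on day 9, and 38.5 CPM in day 12 macrophages against 345 CPM on day 9, while the other classes stay under 50 CPM.

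In the trophectoderm SLC40A1 was lower on day 12, where the uptake genes were higher. It was at 5.93 CPM in day 12 trophectoderm-like cells (5.06 to 6.89, 168 UMIs), against 39.8 CPM on day 9 (34.1 to 46.1, 176 UMIs), a ratio of day 9 over day 12 of 6.71 (5.40 to 8.35). The 3 day 12 clusters lay between 3.33 and 6.63 CPM. In the day 9 library hypoblast-like cells had 7.92 CPM and low barcodes 11.9 CPM, so the day 9 trophectoderm level stood above both. In order of level over all classes, day 9 macrophages and day 12 stroma each stood alone, and day 12 smooth muscle, day 9 trophectoderm and day 12 macrophages overlapped.

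Over the other 43 listed iron genes, most lay within 2-fold between days. In epithelium 2 of 31 were higher and 7 lower (median log2 ratio -0.03), against 11.1% higher and 15.2% lower of all genes. BLVRA, which reduces biliverdin, was at 28.3 CPM on day 12, against 182 CPM on day 9, and the iron regulatory protein ACO1 at 34.6 CPM on day 12, against 90.8 CPM on day 9. In stroma 5 of 28 were higher and 1 lower, against 5.87% and 7.86% of all genes. The metal importer SLC39A8 was at 50.4 CPM on day 12, against 7.64 CPM on day 9, the ferric reductase CYBRD1 at 67.1 CPM on day 12, against 30.3 CPM on day 9, and heme oxygenase HMOX1 at 29.2 CPM on day 12, against 10.2 CPM on day 9. Hypoblast-like cells had 4 of 28 higher and 2 lower, against 12% and 8.79% of all genes. Among these SLC39A8 was at 246 CPM on day 12, against 24.9 CPM on day 9, and its relative SLC39A14 at 24.1 CPM on day 12, against 61.3 CPM on day 9. In trophectoderm-like cells 6 of 22 were higher and 0 lower, a share near the 29.3% of all genes. The heme and folate importer SLC46A1 was at 110 CPM on day 12, against 33.9 CPM on day 9 there, and FLVCR2 at 24.7 CPM on day 12, against 4.07 CPM on day 9. Macrophages had 1 of 29 higher and 5 lower, against 6.38% and 10.1% of all genes. T or NK cells had 1 of 27 higher and 9 lower, against 5.92% and 22%, and the 9 came to 2 with a minimum of 2000 UMIs per cell. Blood endothelium had 1 of 28 higher and 3 lower, against 4.36% and 7.92%, and smooth muscle 2 of 27 higher and 2 lower, against 7.89% and 8.34%. B or plasma cells had 2 of 16 higher and 2 lower, and 0 of 2 members were called there, against 11% and 16.3%.

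Ferritin was seen through its light chain FTL alone. FTL was abundant in all 21 classes of 50 cells or more, between 1428 and 8305 CPM in the day 12 embryo and 5633 and 9864 CPM in the day 9 embryo, and between 849 and 7376 CPM in the day 12 endometrium and 841 and 9959 CPM in the day 9 endometrium. None of the 4 comparable storage genes passed 2-fold in any of the 9 classes compared. Haemoglobin and other red cell genes summed to 5.08 CPM or less in the day 12 and 3.03 CPM or less in the day 9 hypoblast-, trophectoderm-, stromal-, epithelial- and macrophage-like classes.

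**Figure D5:**
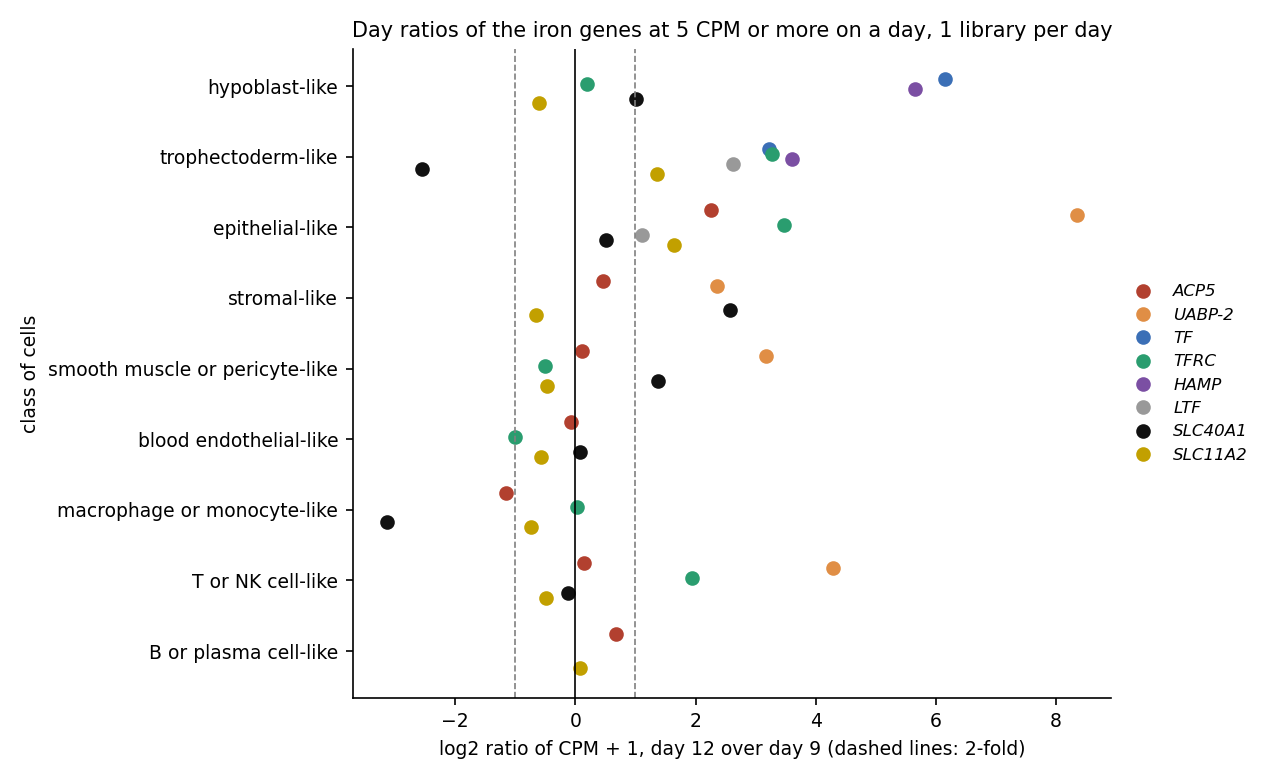
Log2 ratio of CPM + 1, day 12 over day 9, of each member at 5 CPM or more on a day (points, coloured by gene) in each class of cells; dashed lines mark 2-fold. UABP-2 and TFRC lie farthest right in epithelium (8.35 and 3.48), TF and HAMP in hypoblast (6.15 and 5.65), and SLC40A1 is on the left in macrophages (-3.13) and trophectoderm (-2.56) and on the right in stroma (2.58).

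Genes with the most similar pattern were sought by Pearson's r of log2(CPM + 1) over the 21 class profiles, which share libraries and are not independent, among 9599 genes at 20 CPM or more in a class. ACP5 had 1 gene at 0.9 or more, PCED1B (r = 0.90). UABP-2 was most like S100A8 (0.95), S100A12 (0.94) and TRPV5 (0.92). TF was most like TTR (0.96), SERPINA1 (0.96) and FETUB (0.95), and HAMP most like TF (0.95), FETUB (0.93) and SERPINA1 (0.93), where SERPINA1 is 1 of 2 rows given that symbol. TFRC, LTF, SLC40A1 and SLC11A2 had 0 genes at that likeness.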

How the data were processed

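RNA of single cells was captured with droplet chemistry that reads the 3' end, in 4 libraries, 1 per group: embryo and endometrium at day 12 and at day 9. The deposited matrices hold UMI counts per gene and barcode, not normalized, made by the authors with Cell Ranger 6.1.2, for which the submitters' processing notes give the build Sscrofa11.1; the file header of the day 9 embryo names another major version of that program. The deposited tables listed 8105 and 657829 barcodes for the day 12 and day 9 embryo and 11757 and 9483 for the day 12 and day 9 endometrium, so cells of the day 9 embryo were called here above 2759.47 UMIs.

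Kept cells had at least 1000 UMIs and 500 genes, with mitochondrial UMIs up to 20%. They were clustered per library with scanpy 1.11.5 (2000 variable genes, 30 components, 15 neighbours, Leiden resolution 0.6, seed 0) in Python 3.11.15 with NumPy 2.4.6. Scrublet called 93 doublets among day 12 embryonic cells, 1 among those of day 9 and 0 in either endometrium. In 3 of the 4 libraries it thus removed hardly any cells, and doublets may remain there. A cluster was named from 184 of 206 listed markers found in the tables, with 3 high markers required, high meaning at least 0.5 of the level in the top cluster. Raw counts were summed per class and day and given as CPM; intervals came from SciPy 1.17.1. Log2 ratios used 1 CPM added. Ratios given as folds had nothing added, and in them 3 UMIs stood in for a count of 0. Near 0 CPM a fold is therefore wider than its log2 ratio. Of each list, at most 4 genes are named in a class, those with the widest ratio among genes at 20 CPM or more on a day. A gene was like a member at r of 0.9 or more. Shares of cells used cells thinned to 1000 UMIs. The counting of ratios and calls was tested on simulated data. Alternatives were a minimum of 2000 UMIs, resolution 1.0, doublets kept, clustering without the members, another cell call, scaling on the median of ratios, 5 CPM added, no minimum level and other thinning. The members and lists were chosen with earlier results of these data known.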

Additional observations from a re-analysis of the deposited data

Results flagged for a closer look

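ACP5 differed between classes in its direction between days. Its log2 ratio of day 12 over day 9 was 2.26 in epithelial-like cells and -1.16 in macrophage or monocyte-like cells. TFRC had a ratio of 3.48 in epithelial-like cells and -1 in blood endothelial-like cells, the second on the threshold. SLC40A1 had a ratio of 2.58 in stromal-like cells and -3.13 in macrophage or monocyte-like cells. The differences between classes were not tested, since each group is 1 library.

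The unnamed cluster of 20 cells in the day 12 embryo entered no comparison but held UABP-2 at 678.4 CPM (47 UMIs in 8 cells), where the remaining cells had 0.14 CPM. TFRC was at 144.3 CPM (10 UMIs), against 18.2 CPM in the rest, and SLC11A2 at 129.9 CPM (9 UMIs), against 24.9 CPM in the rest. All 20 cells stayed in 1 cluster at resolution 1.0, with doublets kept and without the members in the clustering. With a minimum of 2000 UMIs, 18 of them were kept and lay in a trophectoderm-like cluster of 106 cells. Of the 20 barcodes, 16 stood among the far longer list of deposited barcodes of the day 9 embryo. The origin of these cells was not tested.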

How the results depend on the processing

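No paired analysis was possible because each group is 1 library. Over 41 member ratios and 262 alternatives, 0 changed the sign of a called ratio and 24 lay beyond the counting interval, 12 of them with 5 CPM added, which lowers ratios against a day near 0 by its construction: TF came to 4.04 and HAMP to 4.59 in hypoblast, UABP-2 to 6.76 in epithelium and SLC40A1 to -2.04 in trophectoderm. The other 12 included ACP5 in T or NK cells (-0.31 with 2000 UMIs per cell and at resolution 1.0), SLC40A1 in T or NK cells (1.95 with 2000 UMIs), TFRC in trophectoderm (2.40 with day 9 cells called at 1000 UMIs) and 5 under scaling on the median of ratios. Counts of calls moved as follows. With 2000 UMIs, listed iron genes were 3 higher and 2 lower in T or NK cells and 5 higher in smooth muscle, and members 0 lower in blood endothelium and 1 lower in smooth muscle. At resolution 1.0, 3 iron genes were lower in T or NK cells and 0 members lower in blood endothelium. With day 9 embryo cells called at 1000 UMIs, 3 iron genes were lower in trophectoderm. Scaling on the median of ratios gave 7 iron genes higher in hypoblast, 4 higher in smooth muscle, 1 lower in B cells and 0 members lower in blood endothelium. With 5 CPM added, iron genes were 1 lower in hypoblast, 0 higher and 1 lower in B cells, 0 higher and 3 lower in T or NK cells, 3 lower in macrophages and 0 lower in stroma, and 0 members were lower in blood endothelium. With no minimum level, iron genes were 7 higher in hypoblast, 1 lower in trophectoderm, 6 higher and 7 lower in B cells, 2 higher in T or NK cells, 6 lower in blood endothelium, 4 higher in epithelium, 4 higher and 6 lower in smooth muscle and 4 lower in stroma. Members were then 2 higher and 1 lower in B cells, 1 higher and 2 lower in blood endothelium, 1 higher in macrophages and 1 lower in stroma. The cause was not tested. Depth limits most the levels that rest on few UMIs, among them LTF in every class of the endometrium.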
